A study of Mus musculus with 8 samples.

Results

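Icam1 and 9 integrin chains were measured as RNA in RAW264.7, a transformed line of mouse cells that resemble macrophages. The members are the genes Icam1, Itgam, Itgax, Itgal, Itgb2, Itga4, Itga5, Itgav, Itgb1 and Itgb7, found by symbol in the deposited count table, so they are 10 of 42454 genes listed there. All 10 passed the filter on low counts, as did 11081 genes in all. The study set a stimulus against a compound in 8 libraries, 2 in each of 4 labelled groups, which addresses whether the compound alters inflammatory activation. LPS_IFNg_TubB stands for 24 h of lipopolysaccharide (LPS, 10 ng/ml) and interferon-gamma (20 ng/ml) together with Tubuloside B, a phenylethanoid glycoside of plants. LPS_IFNg stands for the same stimulus without the compound, TubB for Tubuloside B alone, and mock for the solvent DMSO. No time was given for TubB or mock, and no dose of Tubuloside B, in the sources used here. All libraries come from 1 cell line, and no label says that replicates were separate cultures. P-values therefore measure the spread between these samples only, which may be technical.

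Integrins are cell surface receptors made of 1 alpha and 1 beta chain, and they tie a cell to matrix or to other cells. On leukocytes Itgb2 (CD18) pairs with Itgal to form LFA-1, with Itgam to form Mac-1 and with Itgax to form the receptor known as CD11c/CD18. ICAM-1, the product of Icam1, is a membrane protein of the immunoglobulin superfamily that LFA-1 and Mac-1 bind, and inflammatory stimuli are known to raise it in many cell types. Itgb1 pairs with Itga5 as a fibronectin receptor, and with Itga4 or Itgav. Itga4 also pairs with Itgb7.

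The stimulus markers went against 2 of the 4 labels. Irf1, an interferon-gamma responsive transcription factor, and Nos2, the inducible nitric oxide synthase, were read in every library before any comparison. Nos2 had 7429 and 6156 CPM (counts scaled to library size by TMM) in the libraries labelled LPS_IFNg_TubB and 199 and 166 CPM in those labelled LPS_IFNg. It had 6964 and 5762 CPM in the libraries labelled TubB, against 176 and 155 CPM in those labelled mock. Irf1, Ptgs2, Il6 and Gbp2 were likewise high in both groups labelled with Tubuloside B and low in the other libraries. Whether the labels TubB and LPS_IFNg were exchanged between these libraries was not tested. If they were, each comparison below that uses either group would set other treatments against each other than its labels say. LPS_IFNg_TubB against mock uses neither group, and the interaction would keep its value, since both groups enter it with the same sign. The groups below are those of the labels, and no direction below can be read as an effect of the stimulus or of the compound. Library totals ranged from 4767894 to 8413834 counts. Of 10 macrophage markers, 8 were tested and Mertk was at 0 in every library. Their summed level was 9123 to 9351 CPM in LPS_IFNg_TubB, 7727 to 7976 in LPS_IFNg, 8824 to 9337 in TubB and 7720 to 7761 in mock. All 6 T cell markers were at 0 in LPS_IFNg_TubB, LPS_IFNg and mock, and 5 of the 6 in TubB. The 8 neutrophil markers summed to 43.6 to 46.4 CPM in LPS_IFNg_TubB, 6.46 to 7.24 in LPS_IFNg, 37.6 to 57.1 in TubB and 7.36 to 8.23 in mock, with Ly6g, Mpo, S100a9 and Ngp at 0 in every group. Most of that sum was S100a8, at a mean of 38.9 CPM in LPS_IFNg_TubB, 4.60 in LPS_IFNg, 41.6 in TubB and 5.39 in mock. The part of these markers in the results below was not tested.

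In the libraries labelled TubB against mock, 8 of the 10 genes were higher and 2 were lower by edgeR's quasi-likelihood test. Of all genes tested, 26.3% were higher and 24.9% lower in that comparison, 51.2% in either direction. In LPS_IFNg_TubB against LPS_IFNg, 7 were higher, 2 were lower and Itgb1 was not called, where 26.2% of all genes were higher and 25% lower. The median log2 fold change of the 10 genes was 1.06 in TubB against mock and 1.03 in LPS_IFNg_TubB against LPS_IFNg, with medians over all genes of -0.01 in each. The libraries of the compared groups did not overlap for any of the 10 genes in either comparison, which held for 76.2% and 75.9% of all genes tested. In these bulk samples, fewer cells that carry a transcript and less RNA per cell cannot be told apart.

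**Figure D1:**
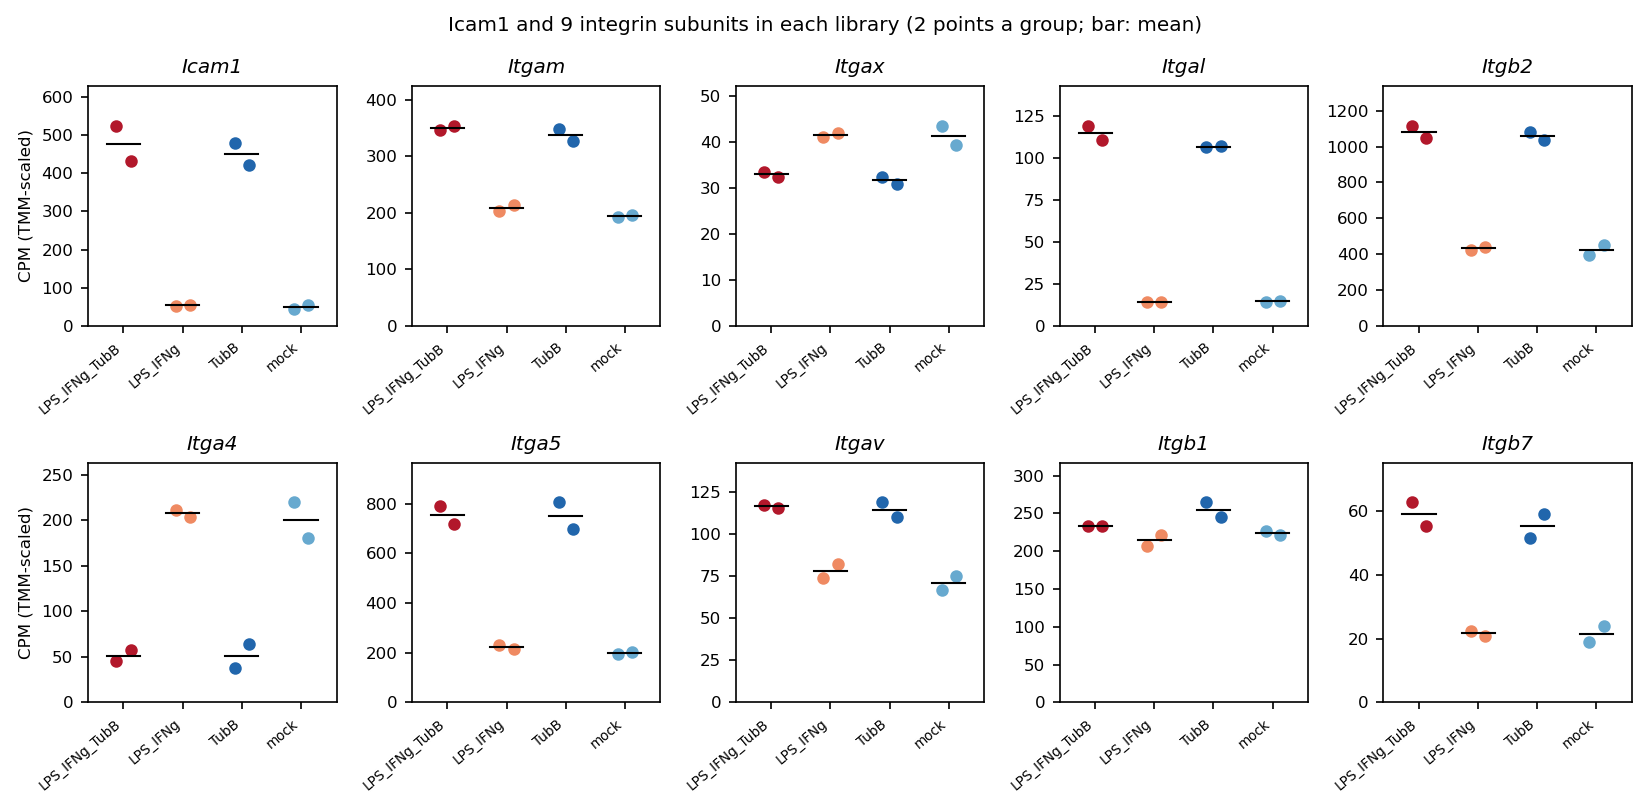
CPM of each gene (y axis, from 0) in the 2 libraries of each labelled group (x axis), with a bar at the mean of each pair. Icam1 lies at 432 to 524 CPM in LPS_IFNg_TubB, 52.3 to 55.2 in LPS_IFNg, 422 to 480.5 in TubB and 45.2 to 55.1 in mock, while Itga4 and Itgax are lower in the libraries labelled with Tubuloside B.

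Icam1 (GRCm38.p6 chromosome 9, 21015940 to 21028814, plus strand) showed the largest rise of the 10 genes in both comparisons. It had 524 and 432 CPM in LPS_IFNg_TubB and 52.3 and 55.2 CPM in LPS_IFNg. It had 480.5 and 422 CPM in TubB, against 45.2 and 55.1 CPM in mock. Every library labelled with Tubuloside B was far above every other library. The log2 fold change was 3.15 ± 0.11 (SE) in LPS_IFNg_TubB against LPS_IFNg (adjusted p = 4.81e-15), or 8.87-fold with a 95% interval of 7.56 to 10.4. In TubB against mock it was 3.17 ± 0.11 (adjusted p = 3.71e-15), or 8.98-fold with an interval of 7.67 to 10.5. On the authors' regularised log2 values, which pull changes towards 0, limma gave 2.03 and 2.04 for these comparisons.

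The bases upstream of Icam1 and of 2 integrin genes are shown because these genes moved in opposite directions in the same libraries: Icam1 and Itga5 were higher in those labelled with Tubuloside B, and Itga4 lower. Each sequence is the 250 bases before the annotated start, from RefSeq on GRCm38.p6, read 5′ to 3′ on the gene's strand. Capitals mark matches to the motifs searched on both strands.
Icam1, chr9:21015690-21015939 (plus strand): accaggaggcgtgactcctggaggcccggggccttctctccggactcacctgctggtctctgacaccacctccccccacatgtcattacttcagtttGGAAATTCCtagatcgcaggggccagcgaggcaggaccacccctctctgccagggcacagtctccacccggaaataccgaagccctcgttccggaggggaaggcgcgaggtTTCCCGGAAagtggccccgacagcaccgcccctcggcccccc
Itga5, chr15:103366792-103367041 (minus strand): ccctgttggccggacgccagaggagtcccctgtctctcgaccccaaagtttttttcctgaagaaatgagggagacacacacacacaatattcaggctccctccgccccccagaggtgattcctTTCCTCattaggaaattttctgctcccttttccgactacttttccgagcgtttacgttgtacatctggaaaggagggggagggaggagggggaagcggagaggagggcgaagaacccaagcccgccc
Itga4, chr2:79255176-79255425 (plus strand): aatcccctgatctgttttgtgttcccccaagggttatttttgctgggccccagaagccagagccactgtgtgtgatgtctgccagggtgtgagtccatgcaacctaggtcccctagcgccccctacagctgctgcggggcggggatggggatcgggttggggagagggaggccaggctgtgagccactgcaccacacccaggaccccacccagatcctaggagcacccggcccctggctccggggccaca
The motifs were the κB consensus by name, a shorter κB form (GGANNTTCC, added after the Icam1 window was seen), the interferon-gamma activated site GAS (TTCNNNGAA), an interferon-stimulated response element core by name, AP-1 (TGANTCA) and the PU.1 core (GAGGAA). The κB forms are those bound by NF-κB, and PU.1 is a factor that sets macrophage identity. In the Icam1 window, TTCCCGGAA matched GAS at positions -42 to -34 from the start, and GGAAATTCC matched the short κB form at -153 to -145. GAS letters were found in 7.02% of 32851 windows of this length and the short κB form in 3.59%. Since the short form was added with the Icam1 window in view, its match there was fixed beforehand. The κB consensus and the response element core, searched as planned, matched in none of the 8 member windows. They were found in 3.9% and 2.98% of all windows. In the Itgax window, not shown, TGAGTCA matched AP-1 at -56 to -50 from the start that RefSeq's promoter table uses, a motif held by 6.75% of windows. The Itga5 window held a PU.1 core at -127 to -122, as did the windows of Itgam, Itgav and Itgb1 at other positions, and 23.3% of all windows hold one. Those of Itga4 and Itgb7 held none of these motifs. The windows of Itgav and Itgb7 lie inside the gene spans given below, since RefSeq's promoter table uses other starts for them. Windows for Itgal and Itgb2 were not used here. These matches describe letters in a window, and binding or function was not tested.

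**Figure D2:**
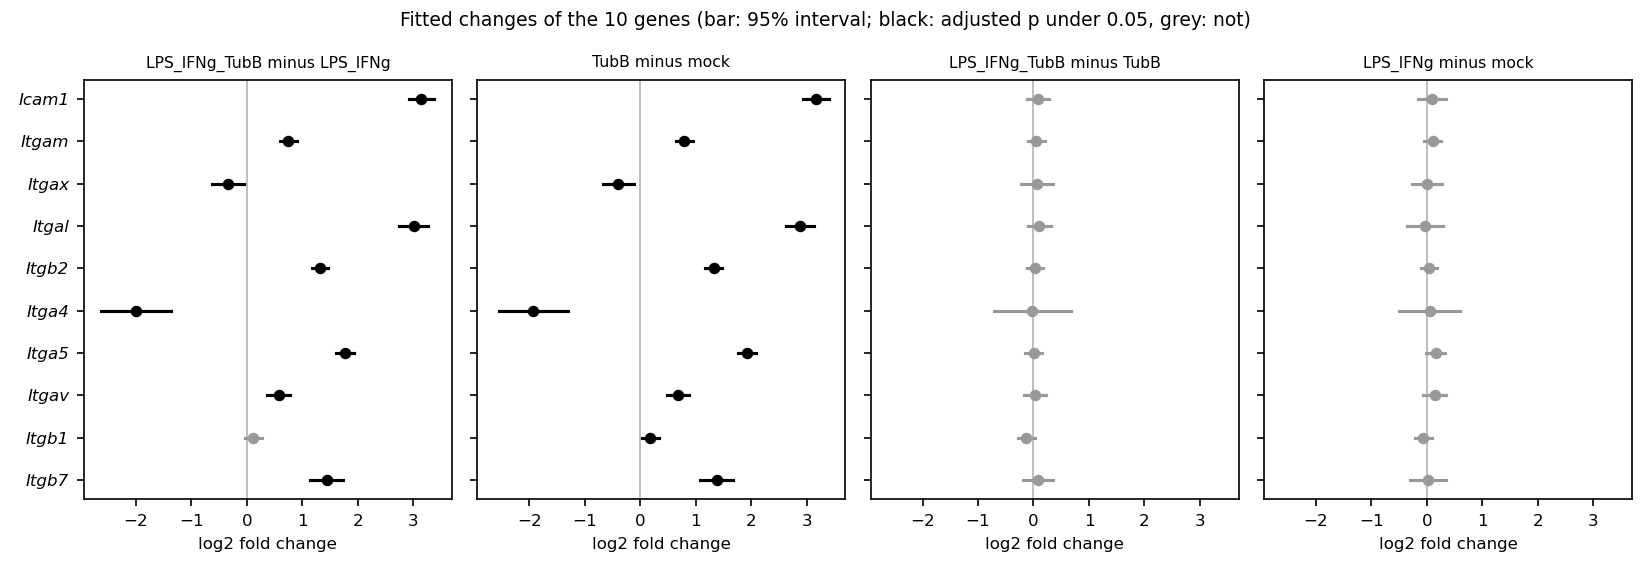
Log2 fold change (x axis) of each gene with its 95% interval in 4 comparisons, black where the adjusted p was under 0.05. In the 2 left panels Icam1 and Itgal stand near 3 and Itga4 near -2, and in the 2 right panels every interval covers 0.

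Among the chains that pair with Itgb2, the alpha chain Itgal (chromosome 7, 127296139 to 127335137), the LFA-1 chain that binds ICAM-1, rose most. Itgal had 119 and 111 CPM in LPS_IFNg_TubB and 13.99 and 14.4 CPM in LPS_IFNg. The libraries labelled TubB had 107 and 107 CPM, against 14.5 and 14.6 CPM in mock. The 2 libraries of each group lay close together and the groups were far apart. Its log2 fold change was 3.01 ± 0.12 in LPS_IFNg_TubB against LPS_IFNg (adjusted p = 6.33e-18) and 2.88 ± 0.12 in TubB against mock (adjusted p = 8.89e-18).

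Itgb2 (chromosome 10, 77530329 to 77565708), the beta chain shared by LFA-1, Mac-1 and CD11c/CD18, had 1115 and 1049 CPM in LPS_IFNg_TubB and 424 and 443 CPM in LPS_IFNg. In TubB it had 1079 and 1034 CPM, against 394 and 449 CPM in mock. The libraries labelled with Tubuloside B were again all above the others. The change was 1.32 ± 0.07 on the log2 scale in LPS_IFNg_TubB against LPS_IFNg (adjusted p = 3.64e-15) and 1.33 ± 0.07 in TubB against mock (adjusted p = 2.86e-15). Itgam (chromosome 7, 128062640 to 128118491), the Mac-1 alpha chain CD11b that also binds the complement fragment iC3b, had 346 and 354 CPM in LPS_IFNg_TubB and 203 and 213 CPM in LPS_IFNg. The libraries labelled TubB had 349 and 327 CPM, against 192 and 196 CPM in mock. It rose less than Itgal in both comparisons, with log2 fold changes of 0.75 ± 0.07 in LPS_IFNg_TubB against LPS_IFNg and 0.80 ± 0.07 in TubB against mock.

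Itgax (chromosome 7, 128129526 to 128150657), the CD11c chain often used to mark dendritic cells, was lower in both comparisons. It had 33.5 and 32.2 CPM in LPS_IFNg_TubB and 41.0 and 42.0 CPM in LPS_IFNg. In TubB it had 32.3 and 30.9 CPM, against 43.4 and 39.2 CPM in mock. The groups were close but did not overlap. The fold was 0.791 (95% interval 0.651 to 0.963, adjusted p = 0.042) in LPS_IFNg_TubB against LPS_IFNg and 0.762 (0.630 to 0.922, adjusted p = 0.0158) in TubB against mock. These calls did not hold under every alternative: 8 of 16 kept the call in LPS_IFNg_TubB against LPS_IFNg and 13 of 16 in TubB against mock, with adjusted p of 0.144 without mock replicate 1 and 0.103 without TubB replicate 2. The 7 dendritic cell markers summed to 11.6 to 13.3 CPM in LPS_IFNg_TubB, 0.823 to 1.02 in LPS_IFNg, 9.55 to 22.4 in TubB and 0.279 to 1.15 in mock, most of it Xcr1 in LPS_IFNg_TubB and TubB, with Flt3 and Siglech at 0 in every group.

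Itga4 and Itga5, alpha chains of fibronectin receptors, moved in opposite directions. Itga5 (chromosome 15, 103344286 to 103366791, minus strand) had 790.4 and 719 CPM in LPS_IFNg_TubB and 229 and 213 CPM in LPS_IFNg. The libraries labelled TubB had 805 and 698 CPM, against 194 and 203 CPM in mock. All 4 libraries labelled with Tubuloside B stood above the other 4. Its log2 fold change was 1.77 ± 0.08 in LPS_IFNg_TubB against LPS_IFNg (adjusted p = 2.01e-17) and 1.92 ± 0.08 in TubB against mock (adjusted p = 2.97e-18).

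Itga4 (chromosome 2, 79255426 to 79333114), which with Itgb1 forms VLA-4, the receptor for VCAM-1 and fibronectin, had 45.5 and 57.3 CPM in LPS_IFNg_TubB and 212 and 204 CPM in LPS_IFNg. In TubB it had 38.0 and 64.2 CPM, against 219.8 and 181 CPM in mock. The libraries labelled with Tubuloside B were far below the others, and the pair labelled TubB was the least alike. The fold was 0.250 (95% interval 0.161 to 0.387, adjusted p = 0.00121) in LPS_IFNg_TubB against LPS_IFNg and 0.264 (0.172 to 0.404, adjusted p = 0.00127) in TubB against mock. Itga4 shares 166 exon bases, 1.69% of its exon length, with the antisense gene Cerkl, which held 67 counts over the 8 libraries, and the library kit did not keep strand. No other member shares exon bases with another gene model.

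Of the beta chains that Itga4 can join, Itgb7 rose in both comparisons and Itgb1 was called in TubB against mock only, a difference between the comparisons that the interaction test did not call. Itgb7 (chromosome 15, 102215994 to 102233405, minus strand), whose pairing with Itga4 is known for homing of lymphocytes to the gut, had 62.7 and 55.2 CPM in LPS_IFNg_TubB and 22.4 and 20.9 CPM in LPS_IFNg. The libraries labelled TubB had 51.4 and 59.1 CPM, against 18.8 and 23.9 CPM in mock. It was higher in both comparisons, by 2.71-fold (95% interval 2.19 to 3.35, adjusted p = 2.87e-09) in LPS_IFNg_TubB against LPS_IFNg and by 2.60-fold (2.12 to 3.19, adjusted p = 3.59e-09) in TubB against mock.

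Itgb1 (chromosome 8, 128685654 to 128733579) had 233 and 233 CPM in LPS_IFNg_TubB and 207 and 222 CPM in LPS_IFNg. In TubB it had 264 and 245 CPM, against 226 and 221 CPM in mock. The groups lay within a narrow band. The fold was 1.09 (95% interval 0.977 to 1.21, adjusted p = 0.188) in LPS_IFNg_TubB against LPS_IFNg, which did not pass the test. In TubB against mock it was 1.14 (1.02 to 1.26, adjusted p = 0.0389), a call kept in 8 of 16 alternatives and lost with DESeq2, with the compared groups alone, with no count filter and without TubB replicate 1, either mock replicate or either LPS_IFNg replicate. This rise also rests on the TMM factors, 0.909 and 0.948 in TubB and 1.08 in each mock library. Over library totals without these factors, Itgb1 was not higher in TubB than in mock. Itgav (chromosome 2, 83722303 to 83806917), the alpha chain of vitronectin and osteopontin receptors, had 118 and 116 CPM in LPS_IFNg_TubB and 74.2 and 82.6 CPM in LPS_IFNg. The libraries labelled TubB had 119 and 110.2 CPM, against 67.1 and 75.0 CPM in mock. It rose by 1.49-fold (1.29 to 1.71) in LPS_IFNg_TubB against LPS_IFNg and by 1.61-fold (1.40 to 1.85) in TubB against mock.

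LPS_IFNg_TubB was also set against mock, the 2 groups whose stimulus markers go with their labels, a comparison chosen after seeing the data that shares its libraries with those above. In it 7 of the 10 genes were higher and 2 lower, beside 26.6% and 25.3% of all genes (51.9% in either direction), and the libraries did not overlap for any of the 10, as for 76.3% of all genes. Icam1 was 9.51-fold higher (95% interval 8.12 to 11.1) and Itgal 7.89-fold (6.61 to 9.41). Itga4 was at 0.259 of its mock level (0.167 to 0.401) and Itgax at 0.794 (0.655 to 0.963), the second a call kept in 7 of 16 alternatives. Itgb1 was at 1.04 (0.936 to 1.16) and did not pass the test. Compound and stimulus cannot be told apart in this comparison. Fitted on these 4 libraries alone, it again gave 7 higher and 2 lower.

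Between libraries that differ in their label by the stimulus only, none of the 10 genes passed the test. In LPS_IFNg_TubB against TubB and in LPS_IFNg against mock, edgeR called 0 of 11081 genes (0%), and so did DESeq2, limma-voom and limma on the regularised log2 values. At an unadjusted p under 0.05 there were 269 genes (2.43%) in the first and 247 (2.23%) in the second, and 0 of the 10 in either. Both shares lie below the 0.05 that this threshold is set to give where nothing differs. Itgb1 had the lowest unadjusted p of the 10 in LPS_IFNg_TubB against TubB (0.106), and Itga5 in LPS_IFNg against mock (0.0607). Icam1 was at 1.06 (95% interval 0.924 to 1.21) in LPS_IFNg_TubB against TubB and at 1.07 (0.900 to 1.28) in LPS_IFNg against mock. The widest intervals were those of Itga4, 0.608 to 1.59 in LPS_IFNg_TubB against TubB and 0.709 to 1.52 in LPS_IFNg against mock. Changes within them were not excluded. The libraries of the groups did not overlap for 2 of the 10 genes in LPS_IFNg_TubB against TubB (26.8% of all genes) and for 3 in LPS_IFNg against mock (30.6%).

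The interaction asks whether the difference between LPS_IFNg_TubB and LPS_IFNg departs from that between TubB and mock. It was called for 0 of the 10 genes and 0 of 11081 genes (0%) by edgeR, with 0 also by DESeq2, limma-voom and limma on the regularised log2 values. By edgeR, 277 genes (2.5%) had an unadjusted p under 0.05. For Icam1 the ratio of the 2 folds was 0.987 (95% interval 0.791 to 1.23), for Itgal 1.10 (0.843 to 1.44) and for Itga5 0.903 (0.773 to 1.05). For Itga4 it was 0.947 with an interval of 0.512 to 1.75, the widest of the 10.

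**Figure D3:**
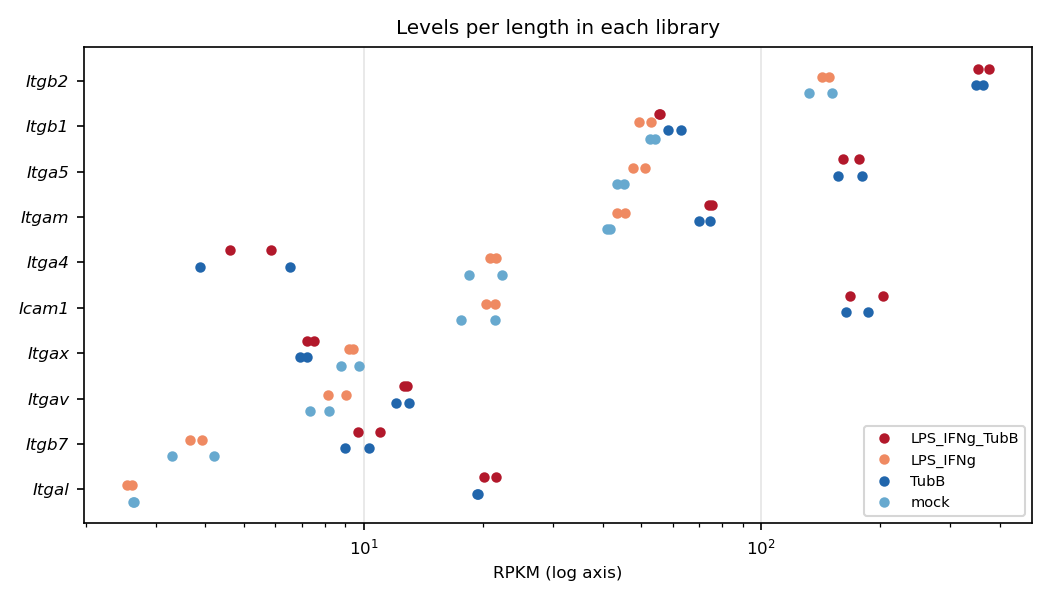
Level per length of each gene (RPKM, log axis) in each library, coloured by labelled group, with genes in the order of their mock mean. Itgb2 is the highest in every library, and Itga4, Icam1 and Itgal change place most between the groups.

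Levels of different genes were set side by side only per length, as RPKM, reads per kilobase of exon scaled to library size. The length is that of all annotated exons of a gene, and which transcripts were present was not tested. Itgb2 led in every group, at a mean of 364 RPKM in LPS_IFNg_TubB, 146 in LPS_IFNg, 355 in TubB and 142 in mock. In LPS_IFNg_TubB it was followed by Icam1 (185 RPKM), Itga5 (169), Itgam (74.7), Itgb1 (55.6), Itgal (20.8), Itgav (12.8), Itgb7 (10.3), Itgax (7.35) and Itga4 (5.23). The order in TubB was the same. In both groups the levels of Icam1 and Itga5, neighbours in the order, overlapped between libraries. In mock the order after Itgb2 was Itgb1 (53.3 RPKM), Itga5 (44.4), Itgam (41.4), Itga4 (20.4), Icam1 (19.5), Itgax (9.25), Itgav (7.77), Itgb7 (3.75) and Itgal (2.64). The order in LPS_IFNg was the same. Itga4 and Icam1 overlapped between libraries in both of these groups, and Itgb1 and Itga5 in LPS_IFNg only. Icam1 was thus sixth of the 10 in mock and LPS_IFNg and the second in LPS_IFNg_TubB and TubB, while Itgal was last in mock and LPS_IFNg and sixth in the others.

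The mix of alpha chains for Itgb2 differed between the same libraries. Itgal made up 19.5% to 21.0% of the summed RPKM of Itgal, Itgam and Itgax in LPS_IFNg_TubB and 4.55% to 4.60% in LPS_IFNg. It made up 19.1% to 20.2% in TubB and 4.93% to 4.96% in mock. Itgax made up 7.01% to 7.29% in LPS_IFNg_TubB, 16.3% to 16.6% in LPS_IFNg, 7.15% to 7.19% in TubB and 16.5% to 18.2% in mock. Itgam held the greater part in every library, from 71.7% to 79.1%. The 3 alpha chains summed to 0.275 to 0.292 of the Itgb2 level in LPS_IFNg_TubB and 0.386 to 0.387 in LPS_IFNg, and to 0.277 to 0.278 in TubB and 0.353 to 0.403 in mock, so in RPKM Itgb2 exceeded these partners in all 8 libraries.

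The balance of the fibronectin receptor chains also differed. Itga5 stood at 2.90 to 3.18 times the RPKM of Itgb1 in LPS_IFNg_TubB and at 0.900 to 1.04 times in LPS_IFNg. It stood at 2.67 to 2.86 times in TubB and 0.804 to 0.860 times in mock. Itga4 was at 0.421 to 0.603 of the RPKM of Itgb7 in LPS_IFNg_TubB and 5.49 to 5.67 times it in LPS_IFNg, and at 0.429 to 0.631 in TubB and 4.38 to 6.77 times in mock. These ratios are of RNA and carry no test of their own, and protein was not measured.

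**Figure D4:**
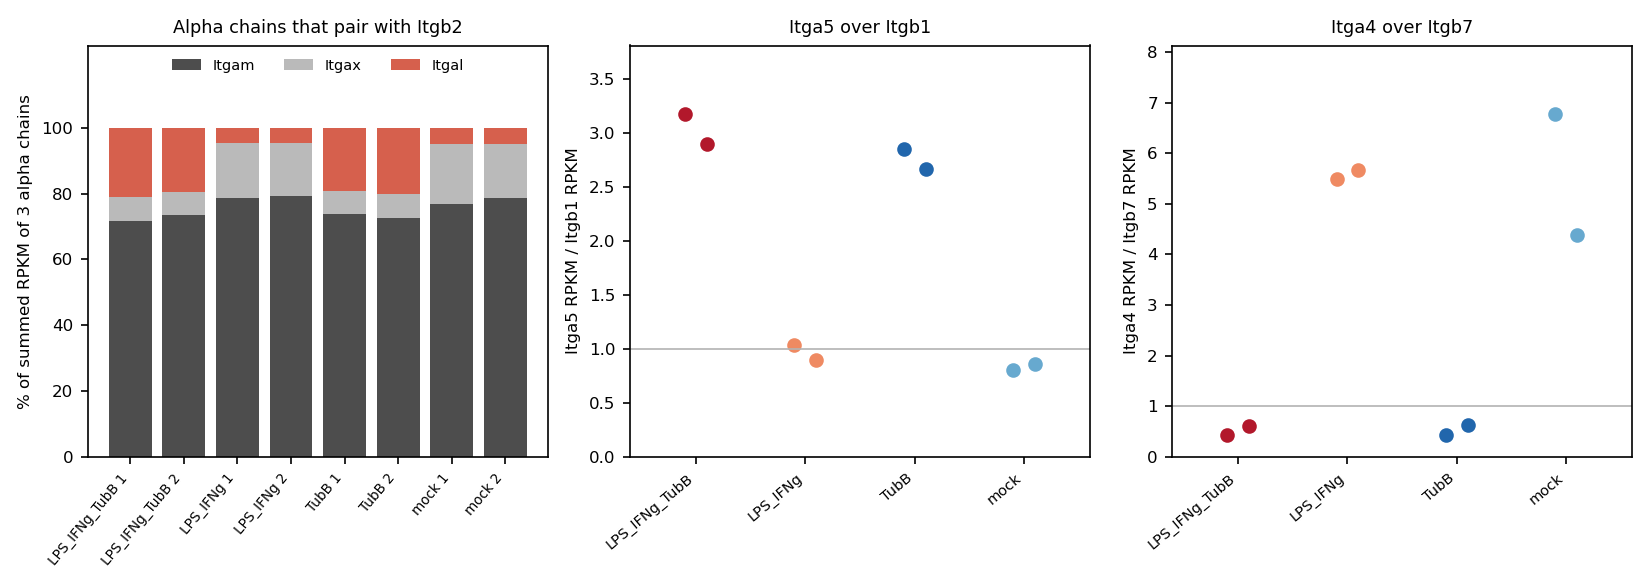
Left, the share of summed RPKM (y axis, %) held by Itgam, Itgax and Itgal in each library. Middle and right, the ratio of Itga5 to Itgb1 and of Itga4 to Itgb7 in RPKM, with 1 point a library and a line at 1. Itgal holds 19.1% to 21.0% in the libraries labelled with Tubuloside B and 4.55% to 4.96% in the others.

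Other genes of the pathway were taken from 4 lists. Of 17 other integrin subunits in the table, 4 were tested. In both comparisons 1 was higher, 1 lower and 2 not called, so 2 of 4 were called where 51.2% of all genes were in each comparison. Their median log2 fold changes were 0.17 in LPS_IFNg_TubB against LPS_IFNg and 0.33 in TubB against mock, beside -0.01 over all genes in each. Itgb5, which pairs with Itgav as a vitronectin receptor, had 14.5 and 19.2 CPM in LPS_IFNg_TubB and 31.8 and 40.9 CPM in LPS_IFNg, and 12.3 and 17.97 CPM in TubB against 39.5 and 38.9 CPM in mock. It fell by 1.09 on the log2 scale in LPS_IFNg_TubB against LPS_IFNg and by 1.33 in TubB against mock. Itga7, a laminin receptor chain, rose by 0.60 ± 0.19 and 0.75 ± 0.19 in these comparisons, the first a call lost without either LPS_IFNg replicate or without LPS_IFNg_TubB replicate 1. Itgb3, another well-measured partner of Itgav, had 83.3 and 79.1 CPM in LPS_IFNg_TubB and 79.8 and 98.7 in LPS_IFNg. It had 85.0 and 83.8 CPM in TubB and 88.5 and 90.0 in mock, and was not called. It was picked after its values were seen.

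Of 20 ligands and counter-receptors in the table, 7 were tested. In LPS_IFNg_TubB against LPS_IFNg 4 were higher, 2 lower and 1 not called, and in TubB against mock 3 were higher, 3 lower and 1 not called, with medians of 0.27 and 0.23. Over all genes 26.2% were higher and 25% lower in the first comparison, and 26.3% and 24.9% in the second. Spp1, the integrin ligand osteopontin, was abundant, with 2929 and 2891 CPM in LPS_IFNg_TubB, 4535 and 4510.5 in LPS_IFNg, 3229 and 3052 in TubB and 4614 and 4604 in mock. It fell by 0.64 on the log2 scale in LPS_IFNg_TubB against LPS_IFNg and by 0.55 in TubB against mock. Mfge8, which bridges dying cells to Itgav integrins, had log2 fold changes of -0.33 and -0.36 in these comparisons, a call lost in LPS_IFNg_TubB against LPS_IFNg without LPS_IFNg replicate 2. Fbn1, the matrix protein fibrillin-1, had 24 counts in the 2 libraries of LPS_IFNg_TubB and 1 in those of LPS_IFNg, and 38 in TubB and 0 in mock. Icam2, another LFA-1 ligand, had 2 counts in TubB and 18 in mock, a ratio of 0.125 with a counting interval of 0.0141 to 0.523, and its call was lost without any 1 of these 4 libraries, with DESeq2 and on the regularised log2 values. In LPS_IFNg_TubB Icam2 had 8 and 3 counts, against 11 and 4 in LPS_IFNg, a log2 difference of -0.21 ± 0.82 that did not pass the test (adjusted p = 0.852). Jam2 and Icam5 were called on few counts in LPS_IFNg_TubB against LPS_IFNg, and both calls were lost with DESeq2 among other alternatives. The call of Jam2 in TubB against mock was lost without mock replicate 1 or TubB replicate 1. Vcam1, the ligand of VLA-4, was at 0 in every library, and was named after this was seen.

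Of 22 genes that switch integrins on or off in the table, 16 were tested: 9 were higher, 2 lower and 5 not called in LPS_IFNg_TubB against LPS_IFNg, and 8 higher, 2 lower and 6 not called in TubB against mock, where 51.2% of all genes were called in each comparison. Their median log2 fold changes were 0.43 and 0.34. Rap1b, a small GTPase that drives integrin activation, had 458 and 430.2 CPM in LPS_IFNg_TubB and 193 and 224 CPM in LPS_IFNg, and 494 and 415 CPM in TubB against 204 and 217 CPM in mock. It rose by 1.09 ± 0.09 and 1.11 ± 0.09 in these comparisons. Rassf5, a Rap1 effector that binds LFA-1, had log2 fold changes of -1.003 and -1.39, and Tln2, a talin that links beta chains to actin, of -1.63 and -1.55. Both were lower in each comparison. Tln1 and Fermt3, the talin and the kindlin known for leukocyte integrins, had log2 differences of -0.05 ± 0.07 and 0.04 ± 0.08 in LPS_IFNg_TubB against LPS_IFNg and -0.01 ± 0.07 and 0.12 ± 0.08 in TubB against mock, and neither was called. These 2 were picked after their values were seen.

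Of 29 genes of the adhesion complex and its signalling, 27 were tested. In LPS_IFNg_TubB against LPS_IFNg 16 were higher, 4 lower and 7 not called, with a median of 0.39. In TubB against mock 18 were higher, 3 lower and 6 not called, with a median of 0.41. The shares over all genes were 26.2% higher and 25% lower in LPS_IFNg_TubB against LPS_IFNg, and 26.3% and 24.9% in TubB against mock. Bcar1, the adaptor p130Cas, had 25.02 and 13.2 CPM in LPS_IFNg_TubB and 3.62 and 2.72 CPM in LPS_IFNg, and 21.7 and 17.5 CPM in TubB against 3.91 and 5.34 CPM in mock. It rose by 2.55 ± 0.33 on the log2 scale in LPS_IFNg_TubB against LPS_IFNg and by 2.07 ± 0.29 in TubB against mock. Tns1, which ties beta chains to actin, had 3 counts in TubB and 43 in mock, a ratio of 0.0786 with a counting interval of 0.0156 to 0.246, and its call in LPS_IFNg_TubB against LPS_IFNg was lost under most alternatives. None of these 4 lists had a called gene in LPS_IFNg_TubB against TubB, in LPS_IFNg against mock or in the interaction, where no gene of the whole table was called.

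**Figure D5:**
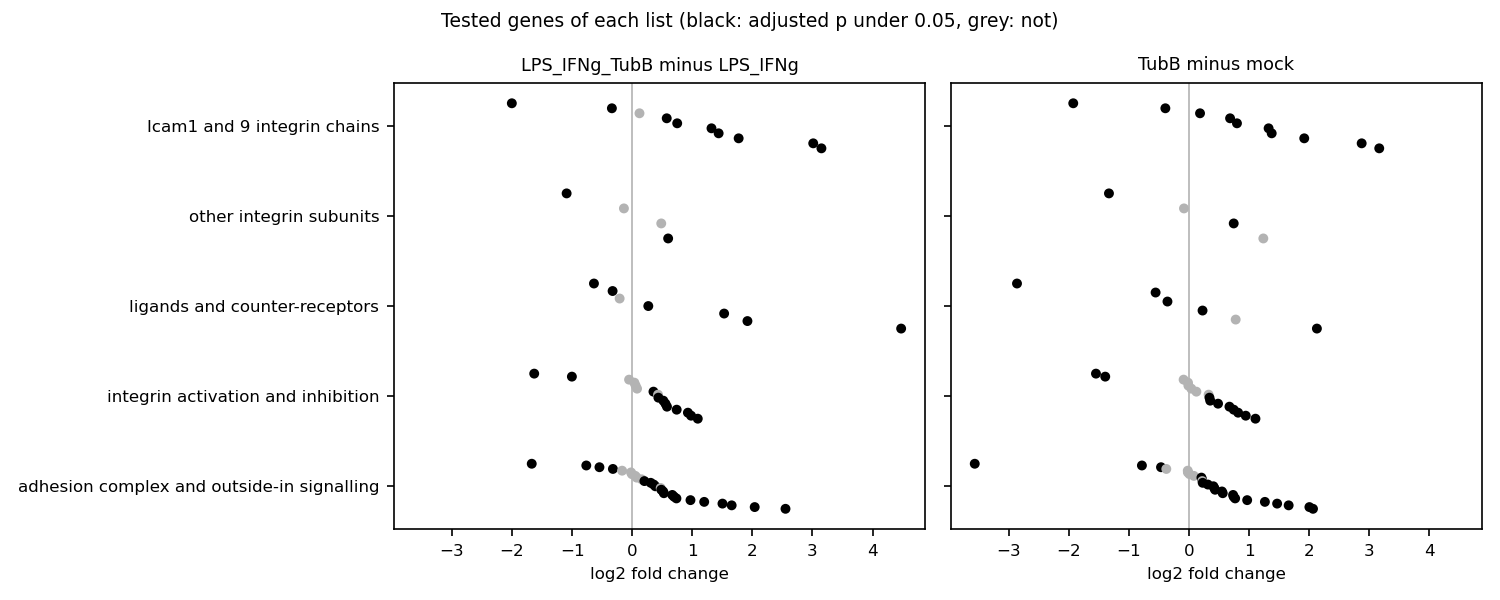
Log2 fold change (x axis) of each tested gene, 1 point a gene, by list (y axis) in LPS_IFNg_TubB against LPS_IFNg and in TubB against mock, black where the adjusted p was under 0.05. Fbn1 is left out of the right panel, since it had 0 counts in mock. The 10 genes reach from about -2 to 3, and most points of the lower lists lie between 0 and 1.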

How the data were processed

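Per the labels' protocols, libraries were made from polyadenylated RNA of RAW264.7 cells with a kit that does not keep strand. Per the submitters' processing notes the authors aligned reads with STAR 2.7.0, and per the file headers featureCounts 2.0.1 counted read pairs over exons of a RefSeq annotation of GRCm38.p6. The deposited values are raw counts per gene, with exon length in bases. The authors also deposited regularised log2 values, used as an alternative.

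Differences were tested by edgeR's quasi-likelihood method (version 4.0.16, with limma 3.58.1 in R 4.3.3), TMM factors, filterByExpr (minimum count 10, total 15), all 8 libraries and group as the only term, leaving 4 residual degrees of freedom. P-values were adjusted by Benjamini-Hochberg over 11081 genes and called under 0.05. It was tested on simulated data. The simulation changed far fewer genes than were called here in TubB against mock, so it does not cover that setting. CPM used TMM-scaled totals, and RPKM also the exon length. Standard errors of log2 fold changes were derived from the change and the test's F statistic. The 95% intervals of the folds were built from these errors. Counting intervals (95%, exact) cover counting error only. Alternatives were RLE factors, other filters (none, or 1 CPM in 2 libraries), the compared groups alone, a replicate block, limma-voom, DESeq2 1.42.0, the regularised log2 values in limma and leaving out each library. The members and the lists were chosen with earlier results of these data known. Named genes outside the members were, per list and comparison, up to 3 called ones with the largest changes, and a few named after their values were seen are said to be so. A gene named by this rule is not reported here.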

Additional observations from a re-analysis of the deposited data

How the results depend on the processing

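Across 16 alternatives (15 for the interaction), no log2 fold change of the 10 genes reversed among those called. All of them kept TMM factors or scaling of a like kind, and library totals alone were not tried. The TMM factors were 0.909 to 0.948 in the libraries labelled with Tubuloside B and 1.07 to 1.08 in the others. The direction of a change as small as that of Itgb1 was therefore not checked against the scaling. Counts of the 10 genes called ranged from 8 to 9 in LPS_IFNg_TubB against LPS_IFNg, from 8 to 10 in TubB against mock and from 8 to 9 in LPS_IFNg_TubB against mock. The calls lost were those of Itgax and, in TubB against mock, of Itgb1. In the other comparisons 0 of the 10 were called under any alternative. On the regularised log2 values the changes of TubB against mock were smaller for Icam1 (2.04), Itgal (1.76), Itga5 (1.26) and Itga4 (-1.27). The replicate numbers do not pair the samples by the labels, and deviations of same-numbered libraries correlated by -0.05 to 0.15. Same-numbered libraries of some groups were nevertheless more alike than replicates: the mean chi-square per gene was 1.97 and 1.91 between LPS_IFNg and mock of the same number, and 1.94 and 2.28 between LPS_IFNg_TubB and TubB, against 3.20, 2.53, 4.62 and 2.85 between the replicates of LPS_IFNg_TubB, LPS_IFNg, TubB and mock. This is a hint from the data, not from the design. With the replicate block, 5753 genes were called in LPS_IFNg_TubB against LPS_IFNg and 5729 in TubB against mock, against 5671 in each without it, and the block changed no call of the 10 genes. With 2 libraries a group and at most 8413834 counts each, changes within those intervals that cover a fold of 1 were not excluded.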

Other observations

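Within the libraries labelled LPS_IFNg_TubB, replicate 1 had more Icam1 than replicate 2 (524 against 432 CPM), less Itga4 (45.5 against 57.3 CPM) and more Nos2 (7429 against 6156 CPM). Within those labelled TubB, replicate 1 likewise had more Icam1 (480.5 against 422 CPM), less Itga4 (38.0 against 64.2 CPM) and more Nos2 (6964 against 5762 CPM). Itga5 followed Icam1 in these groups, with 790.4 against 719 CPM in LPS_IFNg_TubB and 805 against 698 CPM in TubB. In LPS_IFNg it did not, with 229 against 213 CPM. Itgb2 and Itgav were also higher in replicate 1 of both groups. Itgb7 was lower in replicate 1 of TubB (51.4 against 59.1 CPM), and Itgam in replicate 1 of LPS_IFNg_TubB (346 against 354 CPM). Itgal had 119 against 111 CPM in LPS_IFNg_TubB and 107 in both replicates of TubB. In mock, replicate 1 had less Icam1 (45.2 against 55.1 CPM) but more Nos2 (176 against 155 CPM). The same held in LPS_IFNg, with 52.3 against 55.2 CPM of Icam1 and 199 against 166 CPM of Nos2. With 2 libraries a group no test was made, and the labels do not say whether replicates with the same number share a culture or a day.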
